A study of Zea mays with 12 samples.

Results

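The distal end of maize chromosome 3, beyond 220 Mb in B73 RefGen_v3, was compared between seeds of the transgenic line L100 and of the wild-type inbred line Q319. Its members were chosen by position and by measured level: the gene models that started at 220000000 or later and had a mean deposited normalized signal of at least 17 in 1 or more of the 4 groups. There were 242 such genes of the 385 models in the segment and of 41430 models in all, and the last model of the chromosome ended at 232.2 Mb. A further 2265 genes of chromosome 3 passed the same level and served as the rest of the chromosome. RNA-seq was made from whole seeds of L100 at 10 days after pollination (DAP), wild type (WT) at 10 DAP, L100 at 15 DAP and WT at 15 DAP, with 3 libraries in each group. The sources used here state neither the transgene that L100 carries nor its promoter or place of insertion, nor whether the libraries came from separate ears or plants. The p-values therefore measure only the spread between these libraries, which may be technical.

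The maize seed between these stages passes from cell proliferation to grain filling, in which the endosperm makes starch and storage proteins while the embryo grows. Genes of both seed compartments and of the maternal seed coat are read together in a whole seed. Genes that lie close together on a chromosome are usually inherited together, and maize inbred lines are known to differ from each other both in gene content and in the level at which many shared genes are expressed.

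The libraries held 14014035 to 22370566 counts, so that 3 counts were worth 0.152 to 0.23 CPM. CPM are counts brought to a common total of 1000000 with TMM factors, and compare 1 gene between libraries. Of 32 seed marker names, 24 matched, to 24 different models, and markers of endosperm, embryo and transfer layer were all measured. The marker c1, an aleurone pigment regulator, was near 0 in every group. Between the lines, 2 of the 22 marker models tested were called at 10 DAP (kn1 and 1 of 2 glb1 models) and 1 at 15 DAP, all higher in L100. The one at 15 DAP was glb2, an embryo globulin, with means of 525.8 CPM in L100 seeds and 29.17 CPM in WT seeds. The summed level of 6 embryo marker models was 1753 to 3001 CPM in L100 and 916 to 1205 CPM in WT libraries at 15 DAP, and 209.8 to 619.4 and 291.3 to 486 CPM at 10 DAP. That of 7 endosperm markers overlapped at both stages, with L100 10 DAP replicate 2 lowest (2306 CPM, beside 5335 to 9797 CPM in the other 5 libraries of 10 DAP). The 3 marker models of the transfer layer summed to 158 to 272.4 CPM in L100 and 289.6 to 366.4 CPM in WT libraries at 10 DAP. At 15 DAP the sums overlapped, with 61.3 to 84.42 and 73.99 to 120.7 CPM. None of the 3 models was called, and 1 of them, mrp1, was higher in L100 at both stages (log2 difference 0.51 and 0.69). The part of these marker differences in the line differences below was not tested. Fewer cells of a type and less RNA per cell cannot be told apart in these bulk seeds. Within the segment 3 libraries stood apart from the others of their own group. Replicate 2 of the L100 10 DAP group was more than 2-fold away from both partner libraries, themselves within 2-fold of each other, at 16 of the 242 genes (6.61%), and replicate 3 of the L100 15 DAP group at 21 (8.68%). For WT 15 DAP replicate 1 this was 8 genes (3.31%), and for the other 9 libraries it was 0 to 7 genes. On the rest of the chromosome the same count gave 4.64%, 3.09% and 3.09% for these 3 libraries. Counts of line calls over the segment are given with and without them.

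A member could pass the level through 1 group. The mean was at least 17 in all 4 groups for 201 members, in 1 group for 15, only in L100 groups for 15 and only in WT groups for 7. The members just above the level were GRMZM2G064744 and GRMZM2G154245, with highest group means of 17.49 and 18.11, and those just below it were GRMZM2G066428 and Maize_newGene_3119, with 16.85 and 16.05. A reference table gave 20 members an informative name, and 12 members were models that the authors called Maize_newGene. Per length, the members ranged between 0.0982 and 1073 FPKM in the mean of the 12 libraries, with a median of 12.35 FPKM, beside 10.42 FPKM for the rest of the chromosome.

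At 10 DAP, 27 of the 241 members that could be tested differed between L100 and WT at an adjusted p under 0.05 by edgeR's quasi-likelihood test, where 3.0% of all 24941 genes tested did so. These 27 were 11.2% of the members, with 18 higher and 9 lower in L100 (1.76% and 1.24% of all genes), and 20 of them differed at least 2-fold (1.87% of all genes), while on the rest of chromosome 3 the same test called 37 of 2249 genes (1.65%). The L100 and WT libraries did not overlap at 101 members (41.9%), beside 27.3% on the rest of the chromosome and 27.3% of all genes. The median size of the line difference was 0.372 on the log2 scale for the members and 0.255 for the rest. Because a member could enter through the group where it was high, these counts are descriptions. Among the 201 members past the level in all 4 groups, 16 (7.96%) were called, beside 28 of 1948 such genes (1.44%) on the rest of the chromosome.

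At 15 DAP the contrast with the rest of the chromosome was smaller. The test called 22 members (9.13%), 14 higher and 8 lower in L100 (3.57% and 3.09% of all genes) and 13 of them at least 2-fold (3.79% of all genes), where 6.66% of all genes and 116 genes (5.16%) on the rest of chromosome 3 were called. Among the members past the level in all 4 groups, 13 (6.47%) were called, beside 102 of 1948 such genes (5.24%) on the rest of the chromosome. Called and at least 2-fold were 1.99% of these members and 2.0% of these other genes. The 6.47% was also close to the 6.66% of all genes. Libraries did not overlap at 97 members (40.2%), beside 28.6% on the rest of the chromosome and 30% of all genes. With DESeq2, 44 members (18.3%) were called at 10 DAP and 38 (15.8%) at 15 DAP, where 8.07% and 11.6% of all genes were. Over all members tested, whether or not past the level in all 4 groups, the called share was above that of the rest of the chromosome in each of the 21 alternatives tried at both stages. At 15 DAP the share of all genes was close to that of the members in several of them. It was 2.40% beside 2.90% of the members without WT replicate 2, and 3.17% beside 3.72% without L100 replicate 1. With a fit of the groups compared alone it was 5.57% beside 5.96%. The counts themselves turned on single libraries. At 10 DAP they were 15, 10 and 11 without WT replicate 1, 2 or 3, and 17 without L100 replicate 2. At 15 DAP they were 9, 11 and 13 without L100 replicate 1, 2 or 3, 17 without WT replicate 1, 7 without WT replicate 2 and 14 without WT 10 DAP replicate 1. Without both L100 10 DAP replicate 2 and L100 15 DAP replicate 3 they were 32 at 10 DAP and 20 at 15 DAP.

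**Figure D1:**
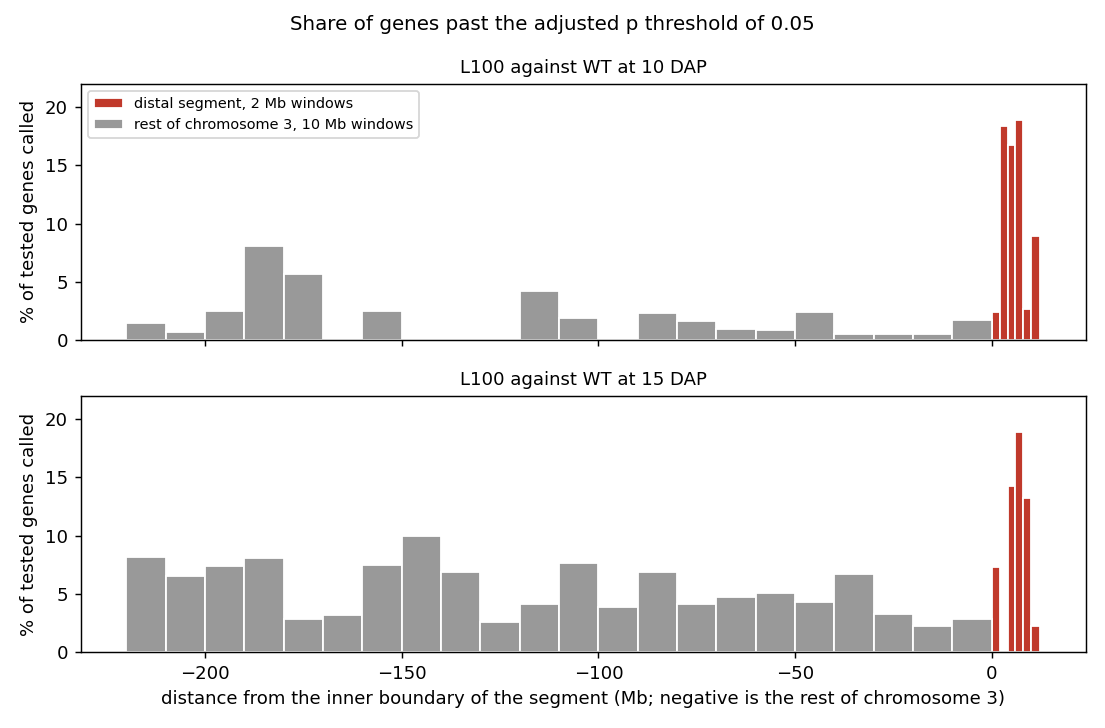
Share of tested genes called between L100 and WT (adjusted p under 0.05, edgeR) at 10 DAP (top) and 15 DAP (bottom), in 2 Mb windows of the distal segment (red; the last window runs to the chromosome end) and 10 Mb windows of the rest of chromosome 3 (grey). At 10 DAP the windows between 2 and 8 Mb past the boundary stand at 16.7% to 18.9%, above each grey window (0.0% to 8.08%).

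The called genes were not spread evenly along the segment. In the first 2 Mb, 1 of 41 genes (2.44%) was called at 10 DAP and 3 (7.32%) at 15 DAP. From 222 to 224 Mb, 7 of 38 (18.4%) were called at 10 DAP and 0 at 15 DAP (the second count is taken up below with WT replicate 1). From 224 to 226 Mb the counts were 7 (16.7%) and 6 (14.3%) of 42, and from 226 to 228 Mb they were 7 (18.9%) and 7 (18.9%) of 37. Beyond this, 1 (2.63%) and 5 (13.2%) of 38 genes were called from 228 to 230 Mb, and 4 (8.89%) and 1 (2.22%) of 45 from 230 Mb to the end. The rest of the chromosome, cut into 22 windows of 10 Mb, gave 0.0% to 8.08% at 10 DAP and 2.21% to 10.0% at 15 DAP, with medians of 1.20% and 4.90%.

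The stretch from 222 to 228 Mb, whose limits were chosen after the values were seen, held 21 of the 27 genes called at 10 DAP and 13 of the 22 called at 15 DAP. That was 17.9% and 11.1% of its 117 genes. From 228 Mb on, 5 (6.02%) and 6 (7.23%) of 83 genes were called, beside the 3.0% and 6.66% of all genes. The middle stretch held the highest share of the 3 stretches in each of 21 alternatives at both stages. Its share was 6.84% to 27.4% at 10 DAP and 5.98% to 19.7% at 15 DAP. The alternatives refit the libraries from which the limits were drawn, so this order was largely set beforehand and is a description. The 6 calls beyond 228 Mb at 15 DAP fell to 0 without L100 replicate 3, without WT replicate 1 or without WT replicate 2. With each of the 12 libraries left out in turn, 9 of the 27 calls at 10 DAP and 6 of the 22 at 15 DAP held throughout. Of the 9, 8 lay in the middle stretch, and all of the 6 did, which is no independent support for limits drawn from the same calls.

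**Figure D2:**
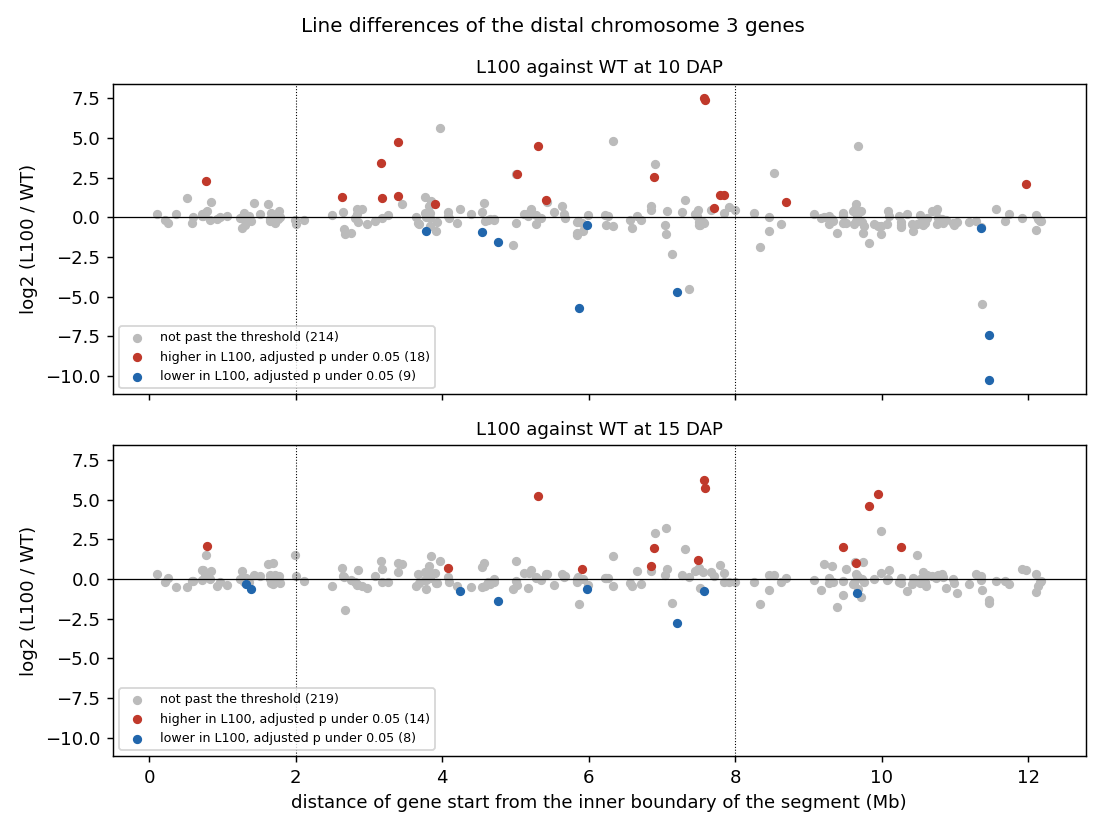
Log2 ratio of L100 to WT for each tested member at 10 DAP (top) and 15 DAP (bottom) against the distance of its start from the inner boundary of the segment in Mb. Red and blue points are higher and lower in L100 with an adjusted p under 0.05, grey points are not past that threshold, and dotted lines mark 2 and 8 Mb. Large differences of both signs lie side by side; fitted values of genes with 0 counts in a group depend on the prior count.

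Genes higher and lower in L100 lay interspersed along the segment. The longest run of neighbouring members called in 1 direction was 2 genes, and the median signed line difference was -0.04 at 10 DAP and 0.04 at 15 DAP. At 10 DAP the 21 calls between 222 and 228 Mb were 15 higher and 6 lower, and at 15 DAP the 13 calls there were 8 higher and 5 lower.

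Nearly all genes called at 10 DAP had a difference of the same sign at 15 DAP, and a smaller share of those called at 15 DAP did so at 10 DAP. Of the 27 members called at 10 DAP, 26 had a difference of the same sign at 15 DAP, and of the 22 called at 15 DAP, 16 had the same sign at 10 DAP. Both counts include the members called the same way at both stages, whose signs agree by definition. Only 20 members were called at 10 DAP alone and 15 at 15 DAP alone. The same count was not made for other genes. Called in the same direction at both stages were 7 members (2.90%), 4 higher and 3 lower in L100, where 0.942% of all genes and 9 genes (0.4%) on the rest of chromosome 3 were. Of the 7, 5 were under the level of 17 in 1 to 3 of the 4 groups and passed it through the others. Among genes past it in all 4 groups, 2 of 201 members (0.995%) and 6 of 1948 genes on the rest of the chromosome (0.308%) were called at both stages. All 7 lay between 224 and 228 Mb. Over the 241 members the line differences at the 2 stages had a Pearson r of 0.516 and a Spearman rho of 0.341, against 0.248 and 0.134 over 2249 genes of the rest. These correlations are across genes, which are not independent replicates, and the 2 stages share no library.

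**Figure D3:**
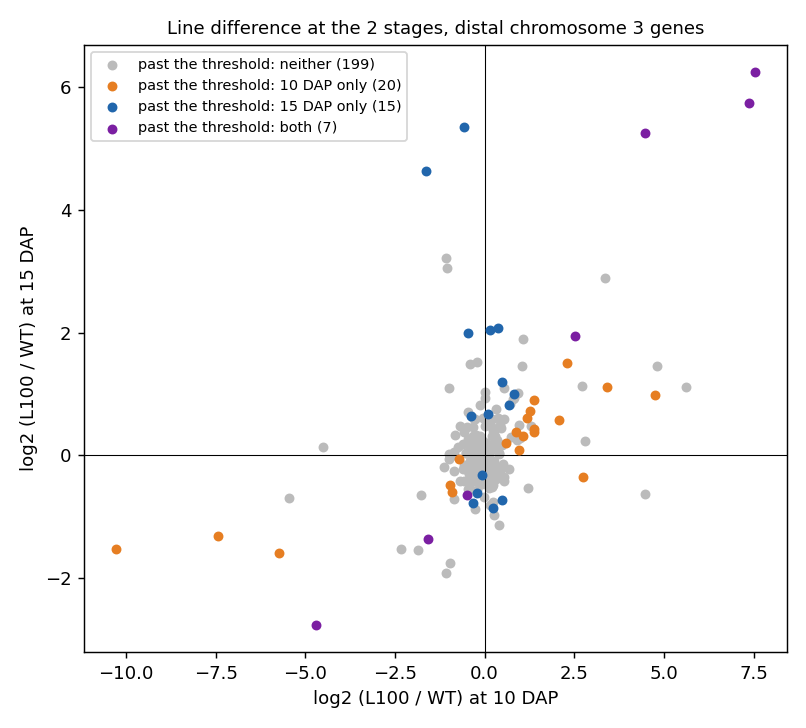
Log2 ratio of L100 to WT at 15 DAP against that at 10 DAP for the 241 tested members, coloured by the stage at which the adjusted p was under 0.05. The 7 genes called at both stages (purple) lie in the quadrants of equal sign, with 4 higher and 3 lower in L100.

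The gene with the highest level among the 7, at 480 FPKM, was GRMZM2G034985-2 (chromosome 3, 224760294 to 224763917, plus strand), for which neither the files nor the reference table gave a name. It had 226, 312 and 252 CPM in L100 seeds and 788, 819 and 738 CPM in WT seeds at 10 DAP. In the 15 DAP libraries it had 214, 181 and 247 CPM in L100 seeds and 518, 548 and 590 CPM in WT seeds. Every L100 library was below every WT library of its stage. It was lower in L100 by a log2 difference of -1.57 (SE 0.15, adjusted p = 0.000279) at 10 DAP and -1.37 (SE 0.15, adjusted p = 0.000773) at 15 DAP, and no single library left out ended either call.

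Maize_newGene_2990 (227584571 to 227588455, plus strand) was at or near 0 in WT. At 10 DAP it had 8.38, 12.9 and 12.3 CPM in L100 seeds and 0, 0.0668 and 0.108 CPM in WT seeds, a total of 621 counts against 3. The ratio of these counts, scaled by library, was 185 (95% counting interval 63.0 to 900.0). The 15 DAP libraries held 6.76, 7.23 and 11.7 CPM in L100 seeds and 0.115, 0.37 and 0 CPM in WT seeds. All 6 L100 libraries lay above all 6 WT libraries, with adjusted p = 0.000356 at 10 DAP and adjusted p = 0.000948 at 15 DAP, and both calls held without any single library. Close to it on the other strand lay Maize_newGene_3123 (227574961 to 227576530), which had 0 counts in all 6 WT libraries. Its L100 libraries held 0.867, 1.93 and 1.31 CPM at 10 DAP and 0.438, 0.625 and 0.613 CPM at 15 DAP. Against 3 counts per WT library it was at least 7.43-fold higher in L100 at 10 DAP (adjusted p = 0.0109) and at least 3.30-fold higher at 15 DAP (adjusted p = 0.0163). Without L100 15 DAP replicate 2 the adjusted p of the second value was 0.0538. Between these 2 models lay AC197555.3_FG008 (227582227 to 227583150, plus strand), which went the other way. At 15 DAP it had 38.7, 31.9 and 37.8 CPM in L100 seeds and 72.8, 64.9 and 48.6 CPM in WT seeds (log2 difference -0.78, SE 0.17, adjusted p = 0.0217, and 0.0131 to 0.0859 with 1 library left out; the call ended without L100 replicate 1 or 2 or WT replicate 1 or 2). At 10 DAP its difference was -0.33 with adjusted p = 0.31.

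GRMZM2G369703 (226893571 to 226897451, plus strand) had 11.6, 9.86 and 10.2 CPM in L100 seeds and 2.34, 1.74 and 1.46 CPM in WT seeds at 10 DAP. It had 3.19, 3.27 and 4.37 CPM in L100 seeds and 1.38, 0.617 and 0.808 CPM in WT seeds at 15 DAP. The L100 libraries lay above the WT libraries at both stages, with log2 differences of 2.51 (SE 0.31, adjusted p = 0.00131) at 10 DAP and 1.94 (SE 0.32, adjusted p = 0.0054) at 15 DAP. The gene also fell between the stages in both lines, by 1.55 in L100 (adjusted p = 0.003) and by 0.97 in WT (adjusted p = 0.036) on the log2 scale. GRMZM2G049866 (225306463 to 225312740, minus strand) had 0.694, 1.72 and 2.14 CPM in L100 seeds at 10 DAP and 1.81, 1.32 and 4.14 CPM at 15 DAP, while the WT estimates were essentially 0. The deposited whole numbers are estimates rounded up, and each of the 6 WT libraries is listed at 1 for an estimate far below 1 read. Against 3 counts per WT library the gene was at least 8.24-fold higher in L100 at 10 DAP and at least 14.3-fold higher at 15 DAP, with adjusted p = 0.00629 and 0.00206 by edgeR on the deposited counts.

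The other 2 genes lower in L100 at both stages differed greatly in the size of the difference. GRMZM2G364566 (227209575 to 227217446, minus strand) had 0.173, 0 and 0.104 CPM in L100 seeds and 2.46, 2.21 and 2.98 CPM in WT seeds at 10 DAP. Its 15 DAP levels were 1.88, 2.02 and 0.23 CPM in L100 seeds and 14.3, 6.91 and 7.12 CPM in WT seeds. Its libraries did not overlap at either stage, with log2 differences of -4.70 (SE 0.83, adjusted p = 0.0127) and -2.76 (SE 0.63, adjusted p = 0.0266). The second call ended without L100 15 DAP replicate 1 or 2 or WT 15 DAP replicate 1 or 2, with adjusted p of up to 0.0795. GRMZM2G090647 (225981515 to 225986479, minus strand) had 57.2, 56.5 and 61.5 CPM in L100 seeds and 76.4, 87.2 and 82.2 CPM in WT seeds at 10 DAP, and 53.3, 42.5 and 48.8 CPM in L100 seeds and 76.0, 77.9 and 72.6 CPM in WT seeds at 15 DAP. The groups did not overlap, but the log2 differences were only -0.49 (adjusted p = 0.0324) and -0.65 (adjusted p = 0.00586). The first of these calls ended when any 1 of 6 libraries was left out (L100 10 DAP replicate 1 or 2, any WT 10 DAP replicate, or WT 15 DAP replicate 3), with adjusted p of up to 0.136.

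**Figure D4:**
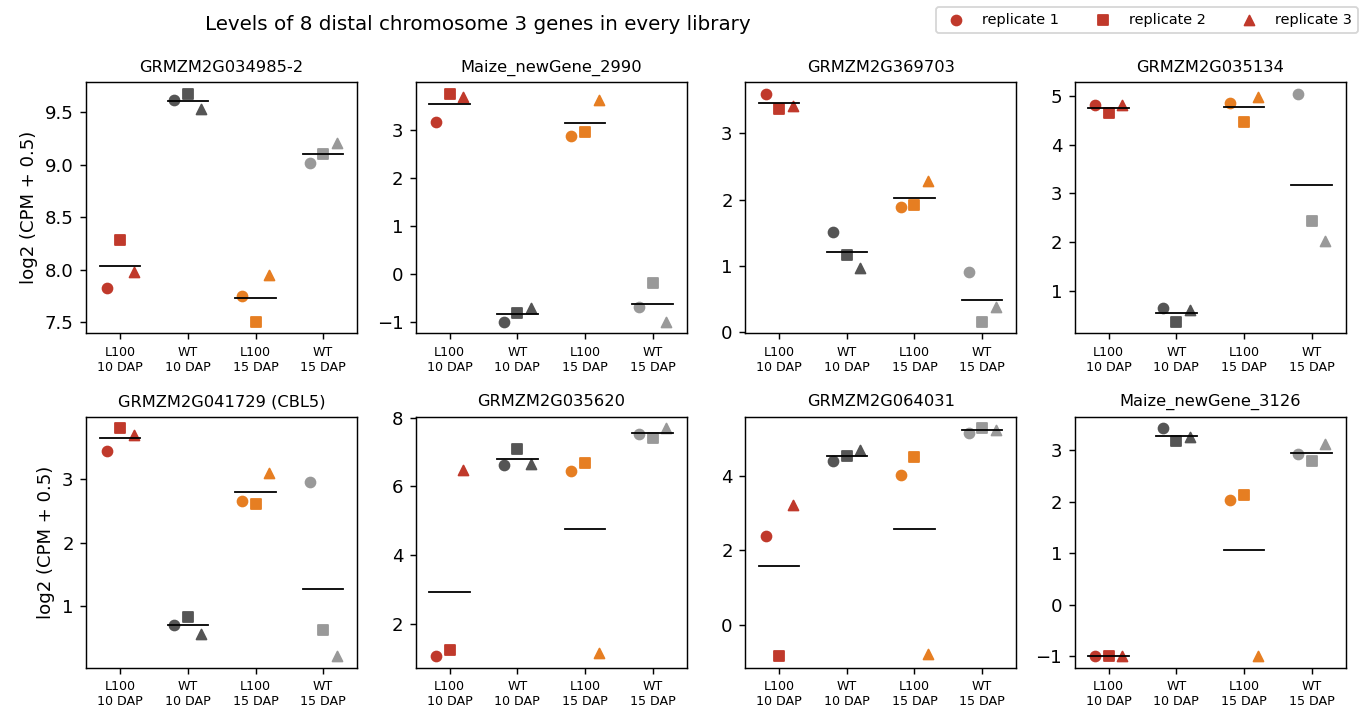
Level of 8 members in every library as log2 of CPM plus 0.5; symbols mark the replicate number and black lines the mean of the 3 log2 values. GRMZM2G034985-2, Maize_newGene_2990 and GRMZM2G369703 separate L100 and WT at both stages; in GRMZM2G035134 and CBL5 the WT 15 DAP replicate 1 lies with the L100 libraries; in GRMZM2G035620, GRMZM2G064031 and Maize_newGene_3126 single L100 libraries are near 0.

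In the window from 222 to 224 Mb, 4 genes that were higher in L100 at 10 DAP made 2 pairs of neighbouring models on opposite strands. CBL5 (GRMZM2G041729, 223169079 to 223172631, plus strand) belongs to the calcineurin B-like family of calcium sensors, which in Arabidopsis bind and activate CIPK protein kinases. It had 10.4, 13.4 and 12.4 CPM in L100 seeds and 1.14, 1.27 and 0.974 CPM in WT seeds at 10 DAP (log2 difference 3.41, SE 0.73, adjusted p = 0.0325). Its neighbour GRMZM2G042008 (223176255 to 223177712, minus strand) had 362, 331 and 401 CPM in L100 seeds and 196, 132 and 151 CPM in WT seeds (log2 difference 1.19, adjusted p = 0.0196). In the second pair, GRMZM2G034943 (223392214 to 223394979, plus strand) had 49.3, 49.6 and 48.9 CPM in L100 seeds and 20.9, 18.4 and 18.03 CPM in WT seeds (log2 difference 1.37, adjusted p = 0.013). GRMZM2G035134 (223396391 to 223397758, minus strand) had 27.6, 24.4 and 27.5 CPM in L100 seeds and 1.07, 0.802 and 1.03 CPM in WT seeds (log2 difference 4.76, SE 0.81, adjusted p = 0.0139). No L100 library overlapped a WT library in any of the 4. The CBL5 call ended when any 1 of 7 libraries was left out (L100 10 DAP replicate 1 or 2, L100 15 DAP replicate 1 or 2, or any WT 10 DAP replicate), with adjusted p of up to 0.132. Those of GRMZM2G034943 and GRMZM2G035134 ended without any 1 of the WT 10 DAP libraries (up to 0.0787 and 0.0814), and that of GRMZM2G042008 without L100 10 DAP replicate 1 or WT 10 DAP replicate 2 or 3 (up to 0.115).

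At 15 DAP these genes were not called, and there 1 WT library stood with L100. CBL5 had 5.82, 5.63 and 8.05 CPM in L100 seeds and 7.28, 1.05 and 0.657 CPM in WT seeds, and GRMZM2G035134 had 28.2, 21.6 and 31.1 CPM in L100 seeds and 32.3, 4.93 and 3.59 CPM in WT seeds. In both genes WT replicate 1 had a level within the L100 range or just above it, and WT replicates 2 and 3 were well below. GRMZM2G042008 (319, 274 and 218 CPM in L100 seeds, 243, 131 and 157 CPM in WT seeds) and GRMZM2G034943 (40.5, 30.6 and 32.4 CPM in L100 seeds, 38.7, 17.2 and 20.9 CPM in WT seeds) also had their highest WT level in replicate 1. Without WT replicate 1, chosen after seeing these values, the log2 difference of CBL5 was 2.93 (SE 0.31, adjusted p = 0.00112) in place of 1.12 (adjusted p = 0.35), and that of GRMZM2G035134 was 2.66 (SE 0.22, adjusted p = 0.000276) in place of 0.99 (adjusted p = 0.41).

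Of the 8 members at which WT 15 DAP replicate 1 lay more than 2-fold from both other WT libraries, 7 lay between 222 and 224 Mb, which is 18.4% of the 38 members there, and in 6 of these 7 it was the highest WT library. The other 11 libraries stood apart in this way at 0 to 3 of the 38 genes. Another gene of this group was GRMZM2G157675 (223847899 to 223851025), with 3.44, 2.43 and 5.90 CPM in L100 seeds and 2.92, 0.678 and 0.657 CPM in WT seeds at 15 DAP. Its log2 difference was 2.54 (adjusted p = 0.0095) without that library and 1.46 (adjusted p = 0.12) with it. The group and the omission were both chosen from the values of that library, so the lower p is no separate test. In GRMZM2G011055 and GRMZM2G365688, also of this group, WT replicate 1 (4.358 and 3.498 CPM) lay above every L100 library of 15 DAP. Neither gene was called without it (adjusted p = 0.71 and 0.34). In the stretch from 222 to 228 Mb, 16 of 117 genes (13.7%) were called at 15 DAP without WT replicate 1, beside 13 with it. Over the whole segment the calls went the other way, to 17 members (7.05%) without it, beside 22 with it. Without it 4.36% of all genes were called.

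Other genes of the middle stretch were called at 1 stage. GRMZM2G143234 (224544470 to 224546198, plus strand), among the highest members per length at 579 FPKM, had 16.5, 23.0 and 18.8 CPM in L100 seeds and 41.5, 39.4 and 32.8 CPM in WT seeds at 10 DAP. Its log2 difference was -0.96 (SE 0.16, adjusted p = 0.0086) at 10 DAP, and -0.48 (adjusted p = 0.094) at 15 DAP. GRMZM2G021194 (227850671 to 227862218, plus strand) had 79.7, 149 and 94.4 CPM in L100 seeds and 39.6, 41.4 and 43.4 CPM in WT seeds at 10 DAP (log2 difference 1.38, SE 0.22, adjusted p = 0.0063). AC209364.3_FG007 (225865829 to 225866380, plus strand) had 1 count in all 3 L100 libraries together and 1.20, 1.40 and 1.52 CPM in WT seeds at 10 DAP, a total of 68 WT counts. It was 76.0-fold lower in L100 by these counts (95% counting interval 13.2 to 3047; adjusted p = 0.022 by edgeR, which ended without L100 10 DAP replicate 2 or any WT 10 DAP replicate, at up to 0.083). Its line difference at 15 DAP was not called (adjusted p = 0.28).

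At 15 DAP the calls in the middle stretch included GRMZM2G066101 (227500456 to 227505461, minus strand), with 41.4, 58.0 and 44.2 CPM in L100 seeds and 13.99, 23.5 and 25.2 CPM in WT seeds (log2 difference 1.20, SE 0.21, adjusted p = 0.0076). GRMZM2G071154 (226852713 to 226859619, minus strand), at 353 FPKM, had 378, 368 and 341 CPM in L100 seeds and 233, 169 and 212 CPM in WT seeds (log2 difference 0.82, adjusted p = 0.0158, with the call ending without L100 15 DAP replicate 1 or 2 or WT 15 DAP replicate 2, at up to 0.0667). It overlaps a model on the opposite strand, and the strand setting of the counting is not given, so reads of the 2 models cannot be told apart. Its difference at 10 DAP was 0.68 with adjusted p = 0.052. In both genes every L100 library was above every WT library at 15 DAP.

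The protease gene see2b (GRMZM2G093032, 225911179 to 225916355, minus strand), a legumain-like cysteine protease named for its rise in senescing leaves, differed between the lines at 15 DAP. It had 99.6, 100 and 89.6 CPM in L100 seeds and 63.1, 46.3 and 76.6 CPM in WT seeds at 15 DAP, and every L100 library was above every WT library. The log2 difference was 0.64 (SE 0.17, adjusted p = 0.0426, and 0.0239 to 0.128 with 1 library left out, the call ending without any L100 or WT 15 DAP library other than WT replicate 3 and without WT 10 DAP replicate 1 or 3). At 10 DAP it had 107, 90.5 and 93.5 CPM in L100 seeds and 113, 144 and 124 CPM in WT seeds, with every L100 library below every WT library and a log2 difference of -0.39 (adjusted p = 0.22). In WT, see2b fell between 10 and 15 DAP by 1.03 on the log2 scale (adjusted p = 0.000851), and in L100 the difference between stages was -0.01 (adjusted p = 0.98). The difference between the 2 line effects was 1.02 (adjusted p = 0.077) and was not called.

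GRMZM2G339540 (224241569 to 224255338, minus strand) was the 1 member, 0.415% of those tested, whose line effect differed between the stages by the test, where 0.545% of all genes did; DESeq2 called 16 members, where it called 4.33% of all genes. It had 131, 148 and 124 CPM in L100 seeds and 96.5, 88.7 and 102 CPM in WT seeds at 10 DAP, with every L100 library above every WT library. The 15 DAP levels were 136, 167 and 116 CPM in L100 seeds and 201, 261 and 230 CPM in WT seeds, with every L100 library below. The line difference was 0.49 (adjusted p = 0.10) at 10 DAP and -0.73 (SE 0.15, adjusted p = 0.0163) at 15 DAP, and the change of the difference was -1.22 (adjusted p = 0.0406). This call ended without any WT 10 DAP replicate, L100 10 DAP replicate 1 or 2, L100 15 DAP replicate 1 or WT 15 DAP replicate 2 or 3, with adjusted p of 0.0349 to 0.121 over the 12 libraries left out in turn. The difference at 15 DAP lost its call without L100 15 DAP replicate 1 or WT 15 DAP replicate 2 (up to 0.0652).

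Each library was also set against the WT libraries of its stage, as the median over genes of the mean absolute log2 difference (on CPM plus 0.5). Over the 117 genes from 222 to 228 Mb this distance was 0.511, 0.472 and 0.414 for the L100 libraries and 0.190, 0.192 and 0.196 for the WT libraries at 10 DAP. The 15 DAP distances were 0.393, 0.419 and 0.545 for L100 and 0.271, 0.244 and 0.233 for WT. Over this stretch, chosen after the values were seen, all L100 libraries thus lay above all WT libraries of their stage. From 222 to 224 Mb alone the lines overlapped at 15 DAP, with 0.393, 0.435 and 0.476 for L100 and 0.421, 0.306 and 0.408 for WT. In the first 2 Mb the distances were 0.238, 0.235 and 0.254 for L100 and 0.194, 0.156 and 0.162 for WT at 10 DAP, and 0.263, 0.272 and 0.371 for L100 and 0.174, 0.174 and 0.192 for WT at 15 DAP. The rest of the chromosome gave 0.292 to 0.376 for L100 and 0.192 to 0.207 for WT at 10 DAP, and 0.307 to 0.379 for L100 and 0.238 to 0.269 for WT at 15 DAP. Each L100 library was therefore farther from WT between 222 and 228 Mb than on the rest of the chromosome. In the first 2 Mb each L100 library was nearer, but so was each WT library, so the lower distance there was not particular to L100. More than 2-fold from WT lay 4.76% to 14.3% of the genes there in the L100 libraries, beside 6.49% to 11.2% on the rest.

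Beyond 228 Mb the L100 libraries differed among themselves. Over these 83 genes the distance was 0.399, 0.652 and 0.313 for L100 and 0.212, 0.259 and 0.232 for WT at 10 DAP, with replicate 2 the farthest. The 15 DAP values were 0.299, 0.287 and 0.514 for L100 and 0.232, 0.262 and 0.246 for WT, with replicates 1 and 2 close to the WT libraries and replicate 3 far from them. More than 2-fold from WT lay 28.9% of these genes in L100 10 DAP replicate 2 and 26.5% in L100 15 DAP replicate 3, against 2.41% to 13.3% in the other 4 L100 libraries and 0.0% to 3.61% in the WT libraries. The 24 such genes of L100 10 DAP replicate 2 were mostly lower than WT (20 lower and 4 higher), and the 22 of L100 15 DAP replicate 3 were 11 higher and 11 lower. In both libraries 5 genes deviated with the same sign, 20.8% of the first set and 22.7% of the second. On the rest of the chromosome this was 31 genes, 13.1% and 12.9% of the sets of the same 2 libraries. The sharing was not particular to this pair. Over the 83 genes its deviations had a Pearson r of 0.062 and a Spearman rho of -0.23. L100 10 DAP replicate 3 and L100 15 DAP replicate 3 shared 6 genes, 54.5% and 27.3% of their sets.

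**Figure D5:**
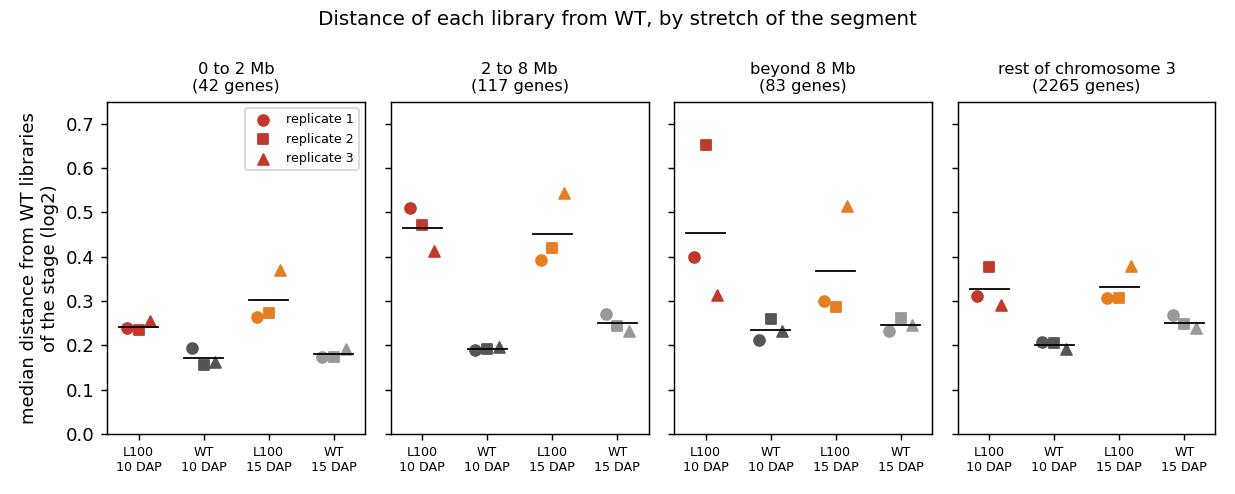
Distance of each library from the WT libraries of its stage (median over genes of the mean absolute log2 difference) in 3 stretches of the segment, given as distance from its inner boundary, and on the rest of chromosome 3. Symbols mark the replicate and lines the mean of 3. L100 lies farthest from WT at 2 to 8 Mb in all 6 libraries except L100 10 DAP replicate 2, which is farther beyond 8 Mb (0.652 against 0.472).

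The deviations of single L100 libraries from WT were most alike across the stages in the middle stretch. Between 222 and 228 Mb, a 10 DAP and a 15 DAP L100 library had a Pearson r over the 117 genes of 0.535 to 0.735 in the 9 possible pairs. In the first 2 Mb, with 42 genes, the range was -0.076 to 0.491, beyond 228 Mb it was -0.072 to 0.441, and on the rest of the chromosome it was 0.024 to 0.19. The 9 pairs share libraries with each other, and the points of a pair are genes, so that these values are descriptions.

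At 6 members the L100 libraries of a stage spread over more than 8-fold while the WT libraries of that stage lay within 2-fold (2.48% of 242, against 26 genes or 1.15% on the rest of the chromosome), a choice made after the values were seen. GRMZM2G035620 (228338585 to 228357979, minus strand) had 1.56, 1.82 and 89.5 CPM in L100 seeds and 99.3, 137 and 99.8 CPM in WT seeds at 10 DAP. At 15 DAP it had 87.7, 102 and 1.69 CPM in L100 seeds and 186, 169 and 206 CPM in WT seeds. Thus 3 of the 6 L100 libraries were near 0 and the other 3 were below the WT range of their stage, and the gene was called at neither stage (adjusted p = 0.49 and 0.55). GRMZM2G064031 (227134340 to 227135467, plus strand) had 4.68, 0.0536 and 8.83 CPM in L100 seeds and 20.6, 22.7 and 25.2 CPM in WT seeds at 10 DAP, and 15.8, 22.2 and 0.0767 CPM in L100 seeds and 35.0, 38.0 and 37.3 CPM in WT seeds at 15 DAP. Here the libraries near 0, each listed at 1 count for an estimate of 0.00219 and 0.0284, were the 2 that lay farthest from WT beyond 228 Mb. GRMZM2G078995 (224974619 to 224976997, minus strand) was near 0 at 10 DAP in replicate 2 alone, with 3.70, 0.0536 and 6.16 CPM in L100 seeds and 12.3, 11.4 and 10.2 CPM in WT seeds, the low value being 1 listed count for an estimate of 0.00111.

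GRMZM2G166745 (229672897 to 229675311, plus strand) was near 0 in every WT library at 10 DAP and in none at 15 DAP. It had 6.59, 4.61 and 0.209 CPM in L100 seeds and 0.316, 0.134 and 0.0541 CPM in WT seeds at 10 DAP, and 11.8, 12.9 and 0.0767 CPM in L100 seeds and 10.4, 15.6 and 12.3 CPM in WT seeds at 15 DAP, and its L100 libraries thus differed among themselves at both stages. Maize_newGene_3126 (231460851 to 231463385, minus strand) had 0 counts in the 3 L100 libraries at 10 DAP, against 10.2, 8.49 and 9.04 CPM in WT seeds, which made it at least 56.4-fold lower in L100 (adjusted p = 0.018). At 15 DAP it had 3.57, 3.89 and 0 CPM in L100 seeds and 7.11, 6.35 and 8.18 CPM in WT seeds. Close to it, Maize_newGene_3127 (231473346 to 231475129, minus strand) had 0 counts in L100 and 1.33, 1.20 and 1.30 CPM in WT seeds at 10 DAP, at least 7.69-fold lower in L100 (adjusted p = 0.0268), and 1.25, 0.695 and 0 CPM in L100 seeds and 1.32, 1.91 and 1.72 CPM in WT seeds at 15 DAP. Both models were thus at 0 in the same 4 L100 libraries. The first call ended without L100 10 DAP replicate 2 or WT 10 DAP replicate 1 or 2 (adjusted p of up to 0.0601), and the second ended without L100 10 DAP replicate 1 or 2 or any WT 10 DAP replicate (up to 0.0821).

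Other calls beyond 228 Mb at 10 DAP were GRMZM2G465764 (228689728 to 228757207, log2 difference 0.97, adjusted p = 0.0124), GRMZM2G389299 (231363307 to 231371619, log2 difference -0.71, adjusted p = 0.0346) and GRMZM2G175076 (231978594 to 231979522, log2 difference 2.08, adjusted p = 0.00879). The first ended without WT 10 DAP replicate 3 (adjusted p = 0.0576), and the second ended without any 1 of 8 libraries (L100 10 DAP replicate 2 or 3, L100 15 DAP replicate 1 or 2, any WT 10 DAP replicate, or WT 15 DAP replicate 3; up to 0.148), while the third held without each. At 15 DAP the largest were GRMZM2G143608 (229826745 to 229829440), with 2.50, 1.11 and 5.14 CPM in L100 seeds and 0.0573, 0.0617 and 0.202 CPM in WT seeds, and GRMZM2G075884 (229953744 to 229955930), with 4.44, 0.417 and 7.44 CPM in L100 seeds and 0.229, 0 and 0.0505 CPM in WT seeds. Their adjusted p values were 0.026 and 0.042, and L100 replicate 2 was the lowest of the L100 libraries in both. The first call ended without L100 15 DAP replicate 1 or 3 or any WT 15 DAP replicate (adjusted p of up to 0.0997). The second ended without any 1 of 9 libraries (L100 10 DAP replicate 1, L100 15 DAP replicate 1 or 3, or any WT 10 or 15 DAP replicate; up to 0.134).

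Of the 20 members with an informative name, CBL5 at 10 DAP and see2b at 15 DAP were called between the lines. The other 18 were called at neither stage, among them CBL10 (a second calcium sensor of the same family), EFTS (an organellar translation elongation factor), SMH2 (a single Myb histone DNA-binding protein), the aldehyde dehydrogenase genes rf2c and rf2d, the plastid protein gene et1, the blue-light receptor gene phot1, the asparagine synthetase gene asn2, the ribosomal protein gene rpl10 and the meiotic recombinase gene Dmc1. Nearest to the threshold was rpl10, with a log2 difference of -0.43 (adjusted p = 0.052) at 10 DAP. The members with the highest level per length, GRMZM2G353103 at 1073 FPKM and GRMZM2G107839 at 1028 FPKM, were not called either, with log2 differences of -0.35 (adjusted p = 0.30) and -0.04 (adjusted p = 0.95) at 10 DAP and 0.03 (adjusted p = 0.95) and 0.62 (adjusted p = 0.26) at 15 DAP.

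Between 10 and 15 DAP the share of the segment that changed was near that of other genes in WT and below it in L100. In L100 seeds 49 members (20.3%) changed, 24 higher and 25 lower at 15 DAP (12.2% and 12.6% of all genes), where 24.9% of all genes and 27.0% of the rest of the chromosome did. Among genes past the level in all 4 groups, 18.9% of members and 27.2% of the rest changed in L100. With 1 library left out the L100 count was 35 to 52 members, and the shares of other genes in those fits are not given here. The L100 comparison includes L100 10 DAP replicate 2 and L100 15 DAP replicate 3, which stood apart in the segment. Their part in its lower share was not tested. In WT seeds 75 members (31.1%) changed, 33 higher and 42 lower (16.1% and 15.3% of all genes), where 31.4% of all genes and 32.9% of the rest did. Scaling by library totals gave 14 higher and 63 lower in L100 and 17 higher and 81 lower in WT, with a median shift over all genes of -0.298 and -0.318 on the log2 scale. Under the main scaling asn2, which makes the nitrogen carrier asparagine, rose with the stage in L100 by 3.58 (adjusted p = 0.00017) and in WT by 2.57 (adjusted p = 0.00062) on the log2 scale. SI397 rose by 1.33 (adjusted p = 0.00066) in L100 and by 1.40 (adjusted p = 0.00035) in WT, while EFTS fell by 0.79 (adjusted p = 0.0017) in L100 and by 0.76 (adjusted p = 0.0014) in WT. The gene phot1 fell in WT by 1.64 (adjusted p = 0.008), and its change in L100 was -0.71 (adjusted p = 0.20); the difference of the 2 was not called (adjusted p = 0.42).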

How the data were processed

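A table of 41430 gene models was deposited per library. The submitters' processing notes name Bowtie 0.12.2 and the B73 RefGen_v3 build. Which quantifier, annotation release, strand setting and filters were used is not given in these sources. Both lines were counted against B73, and how far sequence differences from it change a count was not tested. The deposited expected counts, written by the authors as whole numbers per the file headers, were tested. They are estimates rounded up, as the normalized signal shows, and a listed 1 can stand for almost no read. The deposited normalized signal, read from its values as an unrounded estimate times 1 factor per library, set the level of 17 for membership. The deposited FPKM values served to compare genes per length. Coordinates and spans are those of the files.

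The counts were fitted with edgeR 4.0.16 (R 4.3.3), using TMM scaling, filterByExpr, 1 mean per group over all 12 libraries, robust quasi-likelihood F tests, and Benjamini-Hochberg adjustment over 24941 genes per comparison at a threshold of 0.05. Log2 differences are L100 over WT or 15 over 10 DAP. Their SE is the estimate divided by the root of F. For a group at 0 counts, or at estimates under 0.5, in all 3 libraries, the fold is a bound against 3 counts per library; where it held 1 to 3 counts in all, the count ratio has an exact 95% interval. Bounds and intervals cover counting error only. The fit was tested on simulated counts.

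A RefSeq table (Zm-B73-REFERENCE-NAM-5.0) supplied gene names but no coordinates, and matched 157 of 242 members, 5 of them to more than 1 reference gene. No genome or sequence table was used, so no sequence is printed. Overlap with a model on the other strand was found for 23 members, and 10 members share a reference gene with another member.

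Genes were named by rule: the 8 largest non-overlapping calls per direction in each line comparison, up to 10 per direction called at both stages, up to 5 per direction called in the interaction, called genes with an informative name, the 5 highest members by FPKM, members with 0 counts in all libraries of a group, the 2 nearest the level on each side, and runs of 3 or more neighbours. Other genes were chosen after their values were seen. The members, lists and tests were chosen with earlier results of these data known. Alternatives were DESeq2 1.42.0, RLE scaling, library totals, other filters, a fit of the groups compared alone, the replicate number as a block, each library left out, estimates rounded to the nearest whole number (added after seeing the data), and other levels and boundaries.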

Additional observations from a re-analysis of the deposited data

Results flagged for a closer look

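GRMZM2G339540 was the member whose line difference at 15 DAP differed from that at 10 DAP by edgeR's interaction test. The change of the difference was -1.22 on the log2 scale (SE 0.21, adjusted p = 0.0406). This 1 call was 0.415% of the members, beside 0.545% of all genes. It was kept in 10 of 21 alternatives and ended when any 1 of 8 libraries was left out. Every L100 library was above every WT library at 10 DAP and below every WT library at 15 DAP.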

How the results depend on the processing

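With DESeq2, 44 members were called at 10 DAP, 38 at 15 DAP, 12 in the same direction at both stages and 16 in the interaction, and 135 and 221 genes on the rest of chromosome 3. Library totals gave 0 interaction calls and 77 stage calls in L100, and moved the split at 15 DAP to 18 higher and 5 lower, beside 14 and 8. Fits of the groups compared alone gave 14 members at 15 DAP, 4 at both stages and 30 stage calls in L100. A boundary at 215 Mb gave 2 interaction calls and 81 stage calls in L100; one at 225 Mb gave 17 members at 10 DAP, 0 interaction calls and 46 stage calls in WT. Without L100 10 DAP replicate 2 and L100 15 DAP replicate 3 together, chosen after seeing the data, there were 2 interaction calls and 63 calls on the rest of the chromosome at 10 DAP.

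Same-numbered libraries did not deviate together (correlations of -0.106 to 0.044, beside -0.093 to 0.085 for other numbers). No pairing by number was seen, but these correlations cannot show whether same-numbered libraries share a plant or a preparation. With the replicate block, 17 members were called at 10 DAP, and 20 and 68 genes on the rest of the chromosome at 10 and 15 DAP.

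With 1 library left out, the calls were 10 to 35 members at 10 DAP, 7 to 26 at 15 DAP, 5 to 11 at both stages, 0 to 4 in the interaction, 35 to 52 by stage in L100, 55 to 89 by stage in WT, and 9 to 72 and 36 to 135 on the rest of the chromosome at 10 and 15 DAP. A floor of 3 counts limits the genes below about 0.2 CPM. Among the genes named by rule, no called value changed direction under the alternatives run, while 3 uncalled values near 0 took both signs (GRMZM2G010868 at 15 DAP, -0.07 to 0.35; GRMZM2G107839 at 10 DAP, -0.24 to 0.19; GRMZM2G353103 at 15 DAP, -0.15 to 0.20). The stage split in L100 was 25 higher and 23 lower with RLE scaling, beside 24 and 25. Estimates rounded to the nearest whole number, chosen after seeing the data, gave the same 27 and 22 members. With members defined by a mean of at least 17 over all 12 libraries, 23 of 225 (10.2%) were called at 10 DAP and 20 (8.89%) at 15 DAP.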
